A study of Mus musculus with 16 samples.

Results

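The 10 genes described here move lactate and glucose across cell membranes or act at the ends of glycolysis. They were the monocarboxylate transporters Slc16a8, Slc16a1, Slc16a3 and Slc16a7, their chaperone Bsg, the glucose carriers Slc2a1 and Slc2a3, and the enzymes Ldha, Ldhb and Hk2. They were chosen as a named list, and their probes were found by the gene symbol of the array annotation. Of the 10 genes 9 had a probe (12 probes in all), and Ldhb was not analysed here. Probes of 7 of them, Slc16a8, Slc16a3, Bsg, Slc2a1, Slc2a3, Ldha and Hk2, were detected (p under 0.05 for signal above negative controls) on 4 or more arrays and were tested, out of 11029 named genes that did so.

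Total RNA of retina from untreated C57BL/6 mice was measured on Illumina BeadChips, and the series was designed to compare retinal aging between the sexes. There were 4 groups of 4 arrays each: male aged (24 months), male young (3 months), female aged (24 months) and female young (3 months). The title of male aged replicate 1 calls it aged, while its age field reads 12 months. The labels do not say whether each array came from its own animal, so p-values measure the spread between these arrays, which may in part be technical. Levels are log2 normalised intensities, and a difference is aged minus young, or male minus female. A difference was called at a Benjamini-Hochberg adjusted p under 0.05 in limma over all 15016 tested probes.

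Photoreceptors break down glucose to lactate even where oxygen is present, a habit known as aerobic glycolysis. Glucose reaches them from the choroid across the retinal pigment epithelium, and lactate leaves them in the other direction through proton-coupled monocarboxylate transporters. Slc16a8 encodes MCT3, which lies in the basolateral membrane of the pigment epithelium. Slc16a1 (MCT1), Slc16a7 (MCT2) and Slc16a3 (MCT4) serve photoreceptors, Müller glia and other cells, and basigin (Bsg) escorts MCT1, MCT3 and MCT4 to the surface.

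Promoter windows of RefSeq (build GRCm38.p6, the 250 bases before an annotated start, read 5′ to 3′ on the gene's strand) were found for 7 of the 10 genes, Ldha having 2 windows. They were searched on both strands for CACGTG (an E-box), CATGTG (the core of the M-box of pigment cell genes), TAATCC (the type of site that OTX2 and CRX bind) and ACGTG (the core of the hypoxia response element). ACGTG lies within CACGTG, so every E-box is also counted as ACGTG. The windows of Slc16a8 and Ldha are shown because these genes differed in how they varied over the arrays, and those of Rgr and Rpe65 because their levels followed Slc16a8. Capitals mark the matches.
Slc16a8, chr15:79254749-79254998, minus strand: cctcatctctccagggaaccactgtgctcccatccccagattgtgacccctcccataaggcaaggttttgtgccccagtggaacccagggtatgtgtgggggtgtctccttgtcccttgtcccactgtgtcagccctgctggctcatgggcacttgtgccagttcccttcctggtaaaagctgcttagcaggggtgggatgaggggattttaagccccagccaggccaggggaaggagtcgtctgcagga
Rgr, chr14:37049015-37049264, minus strand: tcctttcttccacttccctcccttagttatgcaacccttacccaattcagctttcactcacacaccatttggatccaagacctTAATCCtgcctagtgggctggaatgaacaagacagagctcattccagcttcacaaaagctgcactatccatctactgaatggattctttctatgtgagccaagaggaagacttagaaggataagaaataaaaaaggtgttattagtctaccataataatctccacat
Rpe65, chr3:159598931-159599180, plus strand: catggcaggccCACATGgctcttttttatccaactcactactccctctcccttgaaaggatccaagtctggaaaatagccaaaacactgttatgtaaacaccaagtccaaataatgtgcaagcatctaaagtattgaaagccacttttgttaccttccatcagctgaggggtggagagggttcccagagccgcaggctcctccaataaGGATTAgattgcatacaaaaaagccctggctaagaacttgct
Ldha, chr7:46845554-46845803, plus strand: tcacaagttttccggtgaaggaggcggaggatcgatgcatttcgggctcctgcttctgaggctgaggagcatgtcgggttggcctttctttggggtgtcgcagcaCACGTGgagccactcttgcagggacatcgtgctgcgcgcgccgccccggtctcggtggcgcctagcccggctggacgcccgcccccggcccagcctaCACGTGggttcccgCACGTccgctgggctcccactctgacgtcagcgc
The Slc16a8 window held none of these letters. That of Ldha held 2 E-boxes and 5 matches to ACGTG in all. Both windows lie inside the annotated spans of their genes (chr15:79251016-79255562 and chr7:46842274-46855627). The bases before those spans were not searched. ACGTG was present for 5 of the 7 genes with a window (Slc16a1, Slc16a3, Slc2a1, Ldha and Hk2), against 16.6% of 32851 mouse windows, and CACGTG for 2 of them, against 6.02%. Of the 5 genes most like Slc16a8 (given below), TAATCC stood in the windows of 3, Rgr, Rpe65 and Pon1, and not in those of Rdh5 and Lrat, against 6.25% of all windows. These 5 were picked by their levels in these data. Stra6, a further gene with levels like those of Slc16a8 (r = 0.94), had no TAATCC in any of its windows. TAATCC also stood in the other window of Ldha, 1 of the 7 listed genes with a window. CATGTG stood in the window of Rpe65, against 12.3% of all windows. These matches describe the letters of the windows only.

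Every rod marker that was tested (9 of the 10 listed) was bright on every array, with a summed normalised intensity of 65691 to 80164; the samples are labelled retina. The array means of the deposited intensities ranged from 158 to 240, and 52.6% to 57.0% of probes were detected per array. Arrays of a group correlated at 0.983 to 0.995. The arrays lay on 5 slides, each with 1 to several groups, so values within a slide are given below where a slide held both groups.

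Slc16a8 was the one gene of the 7 tested that rose with age past the threshold. In male retina it rose 3.16-fold, and over both sexes 2.40-fold. Its level was 7.44, 7.89, 7.49 and 6.78 on the male aged arrays (replicates 1 to 4), against 5.84, 5.45, 5.05 and 6.63 on the male young arrays. It was 5.31, 6.16, 6.53 and 6.23 on the female aged arrays, against 5.02, 4.67, 5.38 and 5.70 on the female young arrays. The probe was detected on all 16 arrays, but the 4.67 of female young replicate 2 lay close to that array's lowest detected level of 4.64. All 4 male aged arrays lay above every other array of the series, while the ranges of the other 3 groups overlapped. The groups thus ran from male aged (7.40 ± 0.46, SD, n = 4) through female aged (6.06 ± 0.52) and male young (5.74 ± 0.67) to female young (5.19 ± 0.44), and female aged and male young differed by less than the SD of either.

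**Figure D1:**
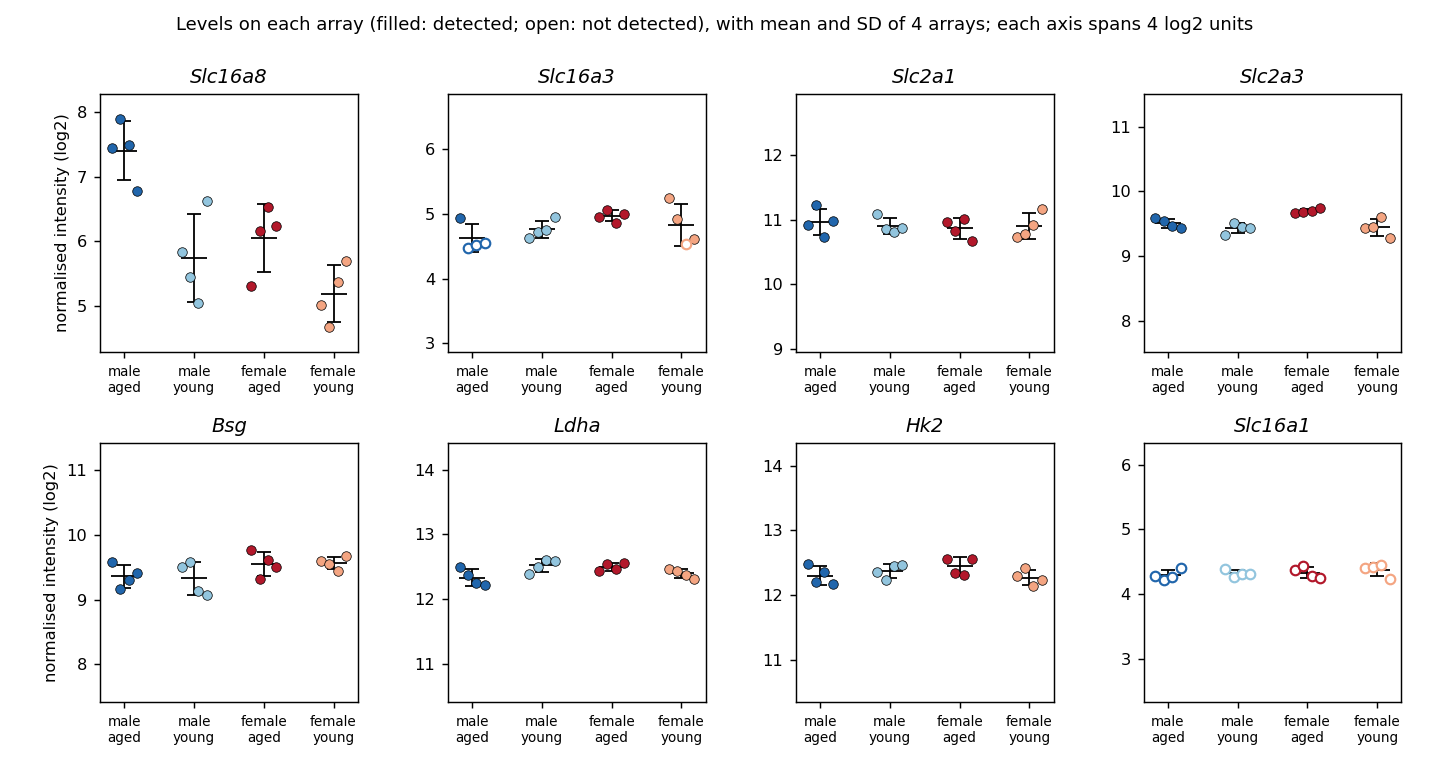
Log2 normalised intensity of 8 genes on each array (points; filled where detected, open where not), with the mean and SD of the 4 arrays per group; every panel spans 4 log2 units. The male aged Slc16a8 levels of 6.78 to 7.89 lie above all others, while the groups of the other genes lie close together and Slc16a1 is not detected on any array.

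The age difference of Slc16a8 in males was 1.66 (SE 0.32, 95% confidence interval 0.98 to 2.34, limma adjusted p = 0.0176). It was 1.60 within slide 1 and 1.85 within slide 3, and 1.65 without male aged replicate 1, the array with the age field of 12 months (adjusted p = 0.0314). That array was the one male aged array on slide 1. The call was lost without male young replicate 2 or 3 or male aged replicate 2 or 3, where the difference was 1.43 to 1.63 and the adjusted p 0.0573 to 0.0776. In the authors' scaled intensities, a linear scale, the 4 male aged arrays averaged 158.9 and the 4 male young arrays 42.0, and the 4 female aged arrays averaged 54.3 and the 4 female young arrays 22.9. The male call was also lost in those scaled values (2.10, adjusted p = 0.1), with no background correction (2.09, adjusted p = 0.0945) and with no probe filter (1.66, adjusted p = 0.0521).

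In females the age difference of Slc16a8 was 0.86 (SE 0.32, interval 0.19 to 1.54), or 1.82-fold, and was not called (adjusted p = 0.475, unadjusted p = 0.0155). It was 1.51 within slide 2 and 0.86 within slide 4, each with 1 array per group, and 1.15 with slide as a block over all arrays (adjusted p = 0.46). With no background correction it was 1.34 (adjusted p = 0.555) and with the authors' scaled values 1.31 (adjusted p = 0.617). The mean over both sexes was 1.26 (SE 0.23, adjusted p = 0.0046). The male difference exceeded the female one by 0.79 (SE 0.45, interval -0.16 to 1.75, adjusted p = 0.579), so a difference between the sexes in this change was not shown.

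At 24 months Slc16a8 was 2.54-fold higher in males than in females, by 1.34 (SE 0.32), with no overlap between the 8 arrays, and this missed the threshold (limma adjusted p = 0.0732, unadjusted p = 0.000624). Within slide 4 it was 0.55, with 1 array per group. Within slide 1 it was 1.70, where the one male aged array is replicate 1, with the age field of 12 months. At 3 months males exceeded females by 0.55 (SE 0.32, adjusted p = 0.412), and the groups overlapped.

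Set against the background of each comparison, 1 of the 7 tested genes was called in male aging, where 0.992% of all tested probes were, and 1 of 7 in the mean of both sexes, where 1.88% were. In female aging 0 of 7 were called (background 0.633%), as for the sex difference at 3 months (0.393%) and at 24 months (0.686%). No probe was called for the difference of the age changes between the sexes in limma (0%), and 1402 probes, among them 1 of the 7 genes, had an unadjusted p under 0.05. Of the 7 genes 2 had an unadjusted p under 0.05 in male aging, 2 in female aging, 2 in the mean of both sexes, 4 in the sex difference at 24 months and 0 in that at 3 months. Over all tested probes the share with such a p was 14.6%, 7.14%, 11.1%, 12.7% and 15.6% in the same order. The median change of the 7 genes was 0.04 in male aging, against -0.02 over all probes, and 0.14 in female aging, against -0.00099.

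**Figure D2:**
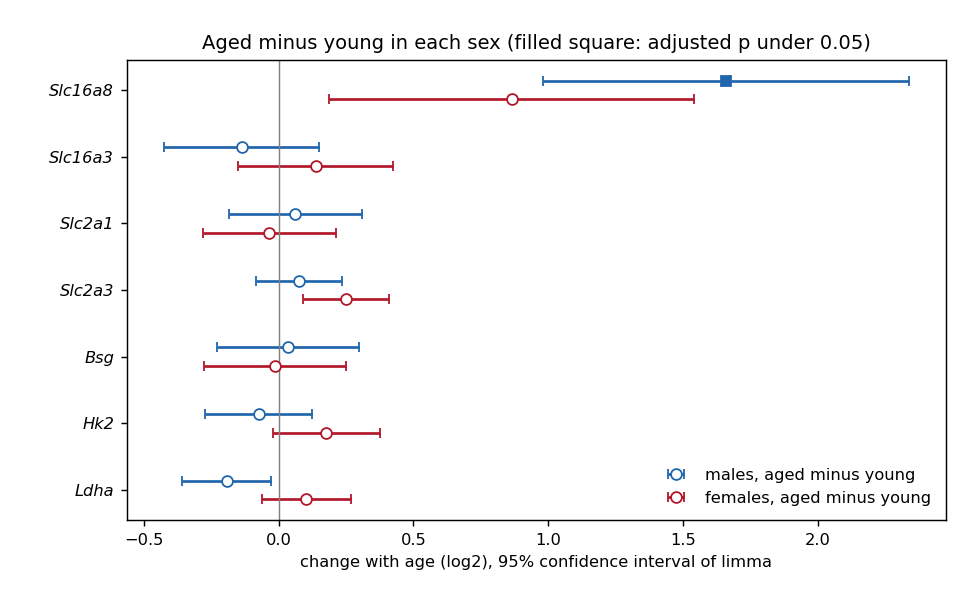
Change with age (log2, aged minus young) of the 7 tested genes in males (upper marker) and females (lower marker), with the 95% confidence interval from limma; a filled square marks an adjusted p under 0.05. Slc16a8 in males (1.66, 0.98 to 2.34) is the one called change, and every other point of the remaining 6 genes lies between -0.19 and 0.25.

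The other monocarboxylate transporters gave little signal. Slc16a1, which encodes the widespread MCT1, and Slc16a7, which encodes the high-affinity MCT2, were detected on 0 of 16 arrays, and neither was tested. Levels of Slc16a1 lay between 4.21 and 4.40 on male aged, 4.26 and 4.39 on male young, 4.25 and 4.43 on female aged and 4.24 and 4.46 on female young arrays. Those of Slc16a7 lay between 4.19 and 4.27 on male aged, 4.17 and 4.32 on male young, 4.21 and 4.27 on female aged and 4.20 and 4.29 on female young arrays. Both stayed at the level of undetected probes, so a change of either was not measurable here.

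Slc16a3 encodes MCT4, the lactate exporter of strongly glycolytic cells. The array annotation gives MCT3 as an older name of this gene too, but its probes are distinct from that of Slc16a8. Its brighter probe read 4.94, 4.47, 4.52 and 4.55 on male aged arrays, against 4.63, 4.72, 4.74 and 4.94 on male young arrays, and was detected on 1 of the 4 male aged and on all 4 male young arrays. It lay between 4.86 and 5.06 on the 4 female aged arrays, against 5.25, 4.93, 4.54 and 4.62 on female young arrays. Both pairs of groups overlapped. The change was -0.14 (SE 0.14, adjusted p = 0.675) in males and 0.14 (SE 0.14, adjusted p = 0.916) in females, and neither was called. The male minus female difference of this probe at 24 months was -0.35 (SE 0.14, unadjusted p = 0.0212, adjusted p = 0.285). The second probe that was tested gave 0.11 for that sex difference and -0.14 for female aging, opposite in sign to the first. For male aging it gave -0.11 (limma adjusted p = 0.647), the same sign as the first. The remaining probe was detected on no array. Since the tested probes disagreed in some comparisons and no change was called, no direction is given for Slc16a3.

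For Bsg, the gene of the glycoprotein partner of these carriers, the age groups overlapped in both sexes. It read 9.16 to 9.57 on male aged and 9.07 to 9.58 on male young arrays, and 9.32 to 9.76 on female aged and 9.44 to 9.67 on female young arrays. Its age difference was 0.04 (interval -0.23 to 0.30) in males and -0.01 (interval -0.28 to 0.25) in females, and its second probe gave 0.02 and -0.01. The male minus female difference at 3 months was -0.24 (SE 0.12, adjusted p = 0.363), which was not called.

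Of the glucose carriers, Slc2a1 encodes GLUT1, the main carrier of the blood-retinal barriers and of photoreceptors. It read 10.91, 11.23, 10.73 and 10.98 on male aged arrays, against 11.08, 10.85, 10.81 and 10.87 on male young arrays. Its level was 10.97, 10.82, 11.01 and 10.66 on female aged arrays, against 10.73, 10.78, 10.92 and 11.17 on female young arrays. The groups overlapped in both sexes, with an age difference of 0.06 (interval -0.18 to 0.31) in males and -0.03 (interval -0.28 to 0.21) in females.

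Slc2a3 encodes GLUT3, the high-affinity carrier of neurons. It read 9.67, 9.67, 9.70 and 9.74 on the female aged arrays, against 9.44, 9.45, 9.61 and 9.28 on the female young arrays. These groups did not overlap, and the difference was 0.25 (SE 0.08, 1.19-fold), which was not called over all probes (unadjusted p = 0.0043, limma adjusted p = 0.269). On male aged arrays it read 9.59, 9.54, 9.46 and 9.44, against 9.32, 9.51, 9.45 and 9.44 on male young arrays, an overlapping difference of 0.08 (adjusted p = 0.677). The male aged arrays also lay below all female aged arrays, by a difference of -0.19 (adjusted p = 0.301), and the difference of the age changes was -0.17 (adjusted p = 0.6).

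Neither enzyme was called in any comparison. Ldha encodes the lactate dehydrogenase subunit that favours the making of lactate from pyruvate. It read 12.50, 12.37, 12.24 and 12.21 on male aged arrays, against 12.40, 12.50, 12.61 and 12.59 on male young arrays. On female aged arrays it read 12.44, 12.54, 12.46 and 12.55, against 12.47, 12.43, 12.37 and 12.31 on female young arrays. The groups overlapped in both sexes. The age difference was -0.19 (SE 0.08, adjusted p = 0.272) in males and 0.10 (SE 0.08, adjusted p = 0.889) in females. That in males was 0.10 within slide 1, where male aged replicate 1 is the one male aged array, and -0.29 within slide 3. The difference of the 2 changes, -0.30 (SE 0.11, unadjusted p = 0.016), had an adjusted p of 0.509.

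Hk2 encodes hexokinase 2, which traps glucose at the entry of glycolysis and is the photoreceptor form. Its levels were 12.17 to 12.49 on male aged and 12.23 to 12.47 on male young arrays, and 12.31 to 12.56 on female aged and 12.13 to 12.42 on female young arrays. The age difference was -0.07 (interval -0.27 to 0.12, adjusted p = 0.754) in males and 0.18 (interval -0.02 to 0.37, adjusted p = 0.767) in females.

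The contrast between the pigment epithelium transporter and the others was then taken within each array, as the level of Slc16a8 minus that of another transporter. This was compared between groups for 5 transporters and 3 comparisons by a two-sided exact permutation test over the arrays, whose smallest p with 4 against 4 is 0.0286, adjusted over the 15 pairs. Of the 5, Slc2a1 and Slc2a3 were detected on all 16 arrays. In males Slc16a8 rose with age by 1.60 more than Slc2a1 and by 1.58 more than Slc2a3 (exact permutation p = 0.0286 and adjusted p = 0.0429 for each). Within slide 1, where male aged replicate 1 is the one male aged array, these differences were 1.77 for Slc2a1 and 1.33 for Slc2a3. Within slide 3 they were 1.71 and 1.80. Both missed the threshold without male young replicate 3 or any 1 of the 4 male aged arrays (1.40 to 1.81 for Slc2a1 and 1.34 to 1.77 for Slc2a3, adjusted p 0.0536 to 0.0779).

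The sex difference of Slc16a8 at 24 months exceeded that of Slc2a1 by 1.24 and that of Slc2a3 by 1.53 (exact permutation adjusted p = 0.0429 for each). Within slide 1, where male aged replicate 1 is the one male aged array, these values were 1.68 and 1.79. Within slide 4 they were 0.23 and 0.85. The differences of 1.24 and 1.53 missed the threshold without any 1 of the 8 arrays, and were then 0.96 to 1.46 and 1.29 to 1.72. In females the age change of Slc16a8 exceeded that of Slc2a1 by 0.90 (adjusted p = 0.0989) and that of Slc2a3 by 0.62 (adjusted p = 0.143), and neither passed.

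Slc16a1 and Slc16a7 were detected on no array, so the level of Slc16a8 minus theirs restates the change of Slc16a8 itself and says nothing of those genes. The brighter Slc16a3 probe was detected on 1 of the 4 male aged arrays, so the differences to it (1.80 for male aging and 1.69 at 24 months) were taken against a mostly undetected group. With no background correction or with the authors' scaled values none of the differences to Slc2a1 and Slc2a3 passed the threshold (1.52 to 2.05, adjusted p = 0.0536). These differences were larger than in the main setting, and an adjusted p here rests on all 15 pairs.

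The levels of Slc16a8 moved with those of other genes of the pigment epithelium. Over the 16 arrays the 5 genes with the highest correlation to Slc16a8 were Pon1 (r = 0.98), Rgr (0.97), Rdh5 (0.96), Rpe65 (0.96) and Lrat (0.95), and they were the same 5 genes after the group means were subtracted (r = 0.95, 0.94, 0.87, 0.86 and 0.85 in that order). Rgr, Rdh5, Rpe65 and Lrat act in the visual cycle, which remakes the retinoid chromophore in the pigment epithelium, and Pon1 encodes paraoxonase 1, an esterase. These correlations are descriptions over arrays that share group, slide and dissection. Of the other 6 tested genes of the list none had a correlation with Slc16a8 beyond -0.38 (Bsg) or 0.30 (Slc2a1).

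Rgr read 11.08, 11.22, 10.93 and 10.37 on male aged arrays, against 8.35, 8.11, 7.22 and 9.21 on male young arrays. On female aged arrays it read 8.48, 9.61, 9.72 and 9.49, against 7.18, 6.56, 8.11 and 8.41 on female young arrays. Within groups the arrays that were low for Slc16a8 were also low for Rgr, such as male young replicate 3, female young replicate 2 and female aged replicate 1.

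**Figure D3:**
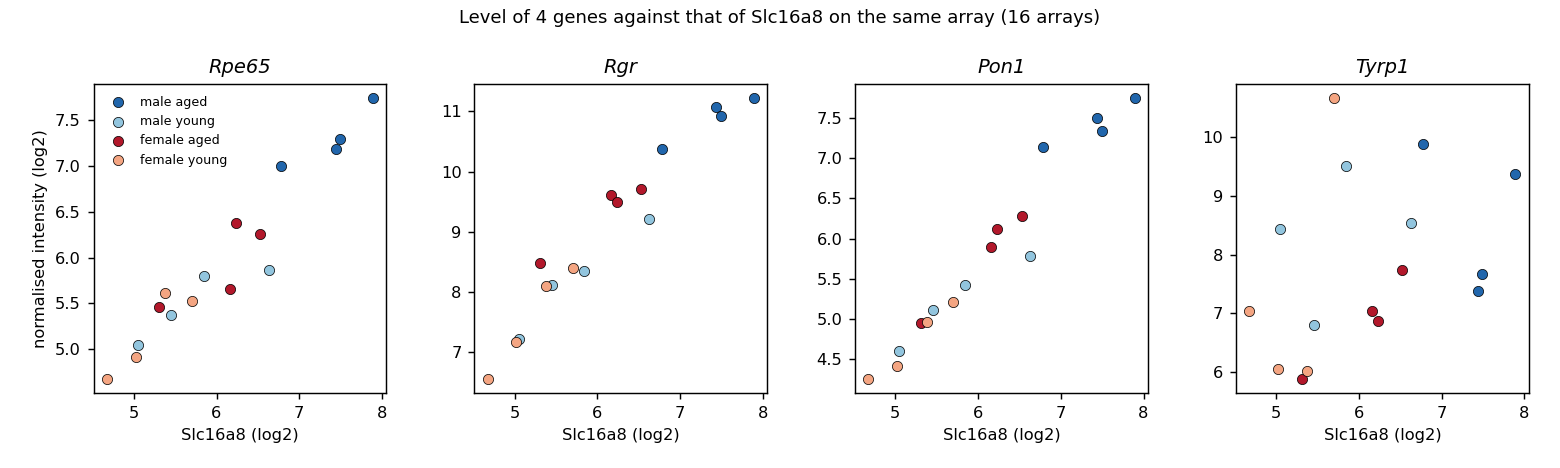
Level of Rpe65, Rgr, Pon1 and Tyrp1 against that of Slc16a8 on the same array (log2 normalised intensity, 16 arrays coloured by group). Rpe65, Rgr and Pon1 follow Slc16a8 closely (r = 0.96 to 0.98), whereas Tyrp1 does not (r = 0.37) and is highest on 1 female young array.

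Of 18 listed markers of the pigment epithelium 13 were tested, and 5 of them rose with age in males, Rgr (2.68), Rpe65 (1.78), Rdh5 (1.48), Lrat (1.27) and Stra6 (1.18), with limma adjusted p from 0.00131 to 0.0347. The Lrat probe was detected on all 4 male aged arrays and on 1 of the 4 male young arrays. Ttr, the transthyretin gene, had a change of 2.01 (adjusted p = 0.0514). The median over the 13 was 0.30, against -0.02 over all probes, but 0.65 without male young replicate 1, 0.65 without male aged replicate 1 and 0.56 without male aged replicate 3. The count fell to 3 without male young replicate 2 or 3 or male aged replicate 2 or 3. In females 0 of the 13 were called, with a median of 0.30, or 0.58 without female young replicate 4. In the mean of both sexes 6 of 13 rose, these 5 and Ttr, and at 24 months Rpe65 (1.37) and Stra6 (0.92) were higher in males than in females, calls that were lost with slide as a block (adjusted p = 0.0639 and 0.058).

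The summed normalised intensity of the 13 markers was 7217 to 11238 on male aged, 2202 to 4545 on male young, 1776 to 3840 on female aged and 1198 to 8831 on female young arrays. The Lrat probe was detected on 3 of 4 female aged and 0 of 4 female young arrays, and Rgr, Rpe65, Rdh5, Ttr and Stra6 were detected on all 16. The highest female young sum was that of replicate 4, alone on slide 5. On that array the melanin genes Tyrp1 and Dct read 10.67 and 11.87, against 6.01 to 7.04 and 6.82 to 7.98 on the other female young arrays. Slc16a8 read 5.70 there, the highest of its group, but the melanin genes Tyrp1, Dct, Mlana and Oca2 followed Slc16a8 weakly over the 16 arrays. Their r was 0.37, 0.38, 0.33 and 0.20 in that order, or 0.51, 0.55, 0.46 and 0.35 without female young replicate 4. The melanin gene Slc45a2, detected on 12 arrays, did not follow Slc16a8 (r = -0.003, or 0.12 without that array). The part of the amount of pigment epithelium in the samples in the Slc16a8 values was not tested, and in RNA of whole retina more cells of a type and more RNA per cell cannot be told apart.

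Set against the mean of those 13 markers on the same array, a comparison added after the data had been seen, Slc16a8 rose with age by 0.77 more in males (Slc16a8 1.66, marker mean 0.89) and by 0.59 more in females (0.86 and 0.28). In both sexes the two-sided exact permutation p was 0.0571, or 0.0856 adjusted over 3 comparisons, so neither difference passed. The mean takes in the melanin genes Tyrp1, Dct, Mlana and Oca2, which changed by 0.17 to 0.30 in males and -0.79 to -0.42 in females. It also takes in the melanin gene Slc45a2, which changed by -0.18 in males and -0.08 in females. In males Rgr (2.68), Ttr (2.01) and Rpe65 (1.78) rose more than Slc16a8. The other markers rose less, except Slc45a2, which had a negative change (-0.18). In females Rgr (1.76), Ttr (1.22) and Rdh5 (0.94) rose more, and the other markers rose less or fell. At 24 months Slc16a8 exceeded the marker mean in its sex difference by 0.29 (exact permutation p = 0.229).

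Of 27 listed genes of glycolysis 19 were tested, and 0 were called in male aging (median -0.05, 6 above 0) and 0 in female aging (median 0.07, 15 above 0). In the mean of both sexes 1 was called, Hkdc1, which encodes a hexokinase-like protein, with a rise of 0.30 (SE 0.08, limma adjusted p = 0.0499). That call was lost with slide as a block (adjusted p = 0.108) and in 12 of 16 fits that left out 1 array (0.26 to 0.35, adjusted p 0.0153 to 0.105). The next largest mean changes, both uncalled, were 0.12 for Pfkfb2, which sets the level of an activator of glycolysis, and -0.12 for Pgk1, a kinase of the payoff phase.

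Of 17 genes on the fate of pyruvate 12 were tested and 0 were called in either sex or in their mean. The largest mean changes were 0.16 for Dld, a subunit of the pyruvate dehydrogenase complex (limma adjusted p = 0.763), 0.15 for Mpc2, a subunit of the mitochondrial pyruvate carrier (adjusted p = 0.761), and 0.10 for Pdp2, a phosphatase that activates the dehydrogenase (adjusted p = 0.602). The medians were 0.04 in males and -0.06 in females.

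Of 23 further carriers of monocarboxylates and sugars 11 were tested and 0 were called for age. The largest mean change was that of Slc16a9, another member of the monocarboxylate transporter family, at 0.25 (SE 0.09, limma adjusted p = 0.276), followed by Slc5a8, a sodium-coupled monocarboxylate carrier, at 0.23 (adjusted p = 0.33) and by Slc2a10, a sugar carrier, at -0.09 (adjusted p = 0.696).

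Of 14 partners and regulators of these carriers 13 were tested, and 1 rose in males. Arrdc4, an arrestin-like protein that lowers glucose uptake, rose by 1.05 (SE 0.24, 2.07-fold, limma adjusted p = 0.047) in males and by 0.71 (SE 0.17, adjusted p = 0.0419) in the mean of both sexes, while its change in females was 0.37 (adjusted p = 0.846). Both calls were lost with slide as a block (adjusted p = 0.0848 and 0.0638). They were also lost in 12 and 11 of the 16 fits that left out 1 array, where the change was 0.86 to 1.30 and 0.61 to 0.83. The next largest mean changes were those of Egln3 at 0.34 (adjusted p = 0.0832) and Egln1 at 0.20 (adjusted p = 0.216), 2 prolyl hydroxylases that mark hypoxia-inducible factors for decay.

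**Figure D4:**
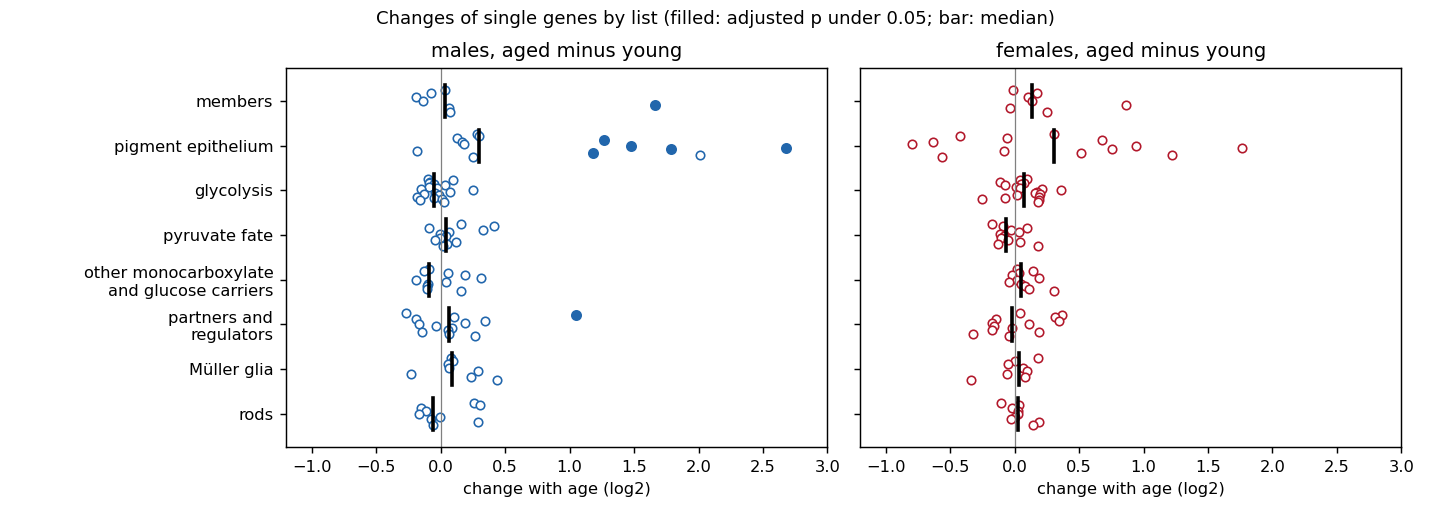
Change with age (log2, aged minus young) of single genes in males (left) and females (right), for the 7 tested genes described here, the markers of 3 cell types and 4 pathway lists; filled points have an adjusted p under 0.05 and bars mark medians. In males the called points are Slc16a8, 5 markers of the pigment epithelium and Arrdc4, and in females none is called.

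Among the markers of other cells, 0 of 9 tested for rods, 0 of 8 for Müller glia, 0 of 8 for endothelium and 0 of 3 for red blood cells were called for age in either sex or in their mean. The endothelial marker Vwf rose by 0.58 in that mean (limma adjusted p = 0.218). With slide as a block its rise was 0.85 and passed the threshold (limma adjusted p = 0.029). For microglia and macrophages 2 of 7 rose in males, 2 in females and 4 in the mean of both sexes, and with slide as a block 1 in males, 1 in females and 4 in that mean. Of 7 tested for lens 1 fell in the mean of both sexes, the crystallin gene Crygb. The summed intensity of the lens markers was 24278 to 33742 on male aged, 23737 to 51398 on male young, 14533 to 32321 on female aged and 28582 to 33348 on female young arrays, and its source was not tested.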

How the data were processed

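Total RNA of retina was measured on 1-colour Illumina BeadChips, 16 arrays in 4 groups, read from titles and labels; slides were read from the array names. The deposited table holds background-subtracted probe intensity values, not scaled between arrays, with 20.7% to 24.2% below 0, and detection p-values, which the authors deposited beside them per the file headers. A second deposited table holds the same intensity values times 1 factor per array. The software is not given in the sources used here.

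Probes were named by symbol (24755 of 25697 matched a RefSeq symbol, 942 kept the file's name); for genes with several probes the brightest one tested was used. With limma 3.58.1 (R 4.3.3), the neqc function normalised the intensities (offset 16, negative controls from detection p-values, quantile, log2). Probes detected (p under 0.05) on at least 4 arrays were tested in 1 limma model of the 4 group means, with two-sided p-values adjusted over all probes of a comparison (Benjamini-Hochberg, called under 0.05). The script was tested on simulated data. Differences of Slc16a8 to other transporters used exact permutation tests. The number of arrays limits the precision.

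The members, pathway lists (glycolysis, pyruvate fate, other carriers, partners and regulators) and marker lists were chosen with earlier results of these data known. Named from the pathway lists are the called genes and the 3 largest mean age changes, and, as most like Slc16a8, the 5 highest correlations. Alternatives were background correction, scaling, probe filters, other probes, variance settings, array weights, slide or replicate blocks, the groups compared alone and each array left out.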

Additional observations from a re-analysis of the deposited data

Results flagged for a closer look

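Among the 36 levels of 9 genes by group, 1 array stood apart from the others of its group: male aged replicate 4 for Slc16a7. Its level was 4.19, against 4.26 to 4.27 on the other male aged arrays, and the gap to its neighbour was 0.864 of the group's range, above Dixon's critical value for 4 samples. Chance marks about 1 group in 20 by this measure. The probe was not detected on any array, so the gap lies within the range of undetected signal.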

How the results depend on the processing

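Over both sexes Slc16a8 was called for age in all 25 alternatives that tested it (1.15 to 1.72, adjusted p up to 0.0397). For male aging the count of called members was 1, but 0 with no background correction (Slc16a8 2.09, limma adjusted p = 0.0945), with the authors' scaled values (2.10, adjusted p = 0.1), with no filter (1.66, adjusted p = 0.0521) and with the stricter filter, under which Slc16a8 and Slc16a3 were not tested; the stricter filter also gave 0 for the mean of both sexes. For Slc16a8 in females no background correction gave 1.34 (adjusted p = 0.555). With 1 array left out the count of called members ranged from 0 to 1 in male aging and from 0 to 1 in the sex difference at 24 months (1 without male young replicate 4), and Slc16a8 in males from 1.43 to 1.95. The count stayed at 0 under every alternative in female aging, in the sex difference at 3 months and in the difference of the age changes.

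The differences of Slc16a8 to other transporters lost the threshold (exact permutation) in 2 settings. With no background correction they were, for male aging and for the sex difference at 24 months in turn, 2.06 and 2.03 (Slc16a1, adjusted p = 0.0952 and 0.132), 2.61 and 2.65 (Slc16a3), 2.09 and 1.62 (Slc16a7), 2.03 and 1.52 (Slc2a1), and 2.01 and 1.82 (Slc2a3), the last 4 with adjusted p = 0.0536. With the authors' scaled values they were 2.01 and 1.98 (Slc16a1, adjusted p = 0.117 and 0.153), 2.58 and 2.66 (Slc16a3), 2.10 and 1.62 (Slc16a7), 2.04 and 1.52 (Slc2a1), and 2.05 and 1.82 (Slc2a3), again with 0.0536. All these differences were larger than in the main setting, where those to Slc2a1 were 1.60 and 1.24 and those to Slc2a3 1.58 and 1.53. The adjusted p of a pair rests on all 15 pairs, so it can rise while the difference of that pair does not shrink. With 1 array left out, tests added after the data had been seen, the male aging differences were 1.46 to 1.99 (Slc16a1, past the threshold in 1 of 8), 1.57 to 2.03 (Slc16a3), 1.43 to 1.93 (Slc16a7), 1.40 to 1.90 (Slc2a1) and 1.34 to 1.88 (Slc2a3), the last 4 past it in 3 of 8 (without male young replicate 1, 2 or 4). At 24 months they were 1.13 to 1.63, 1.45 to 1.89, 1.09 to 1.54, 0.96 to 1.46 and 1.29 to 1.72 in the same order, past it in 0 of 8 (exact permutation adjusted p 0.0536 to 0.0857). Slc16a1 and Slc16a7 were not detected, so their values restate those of Slc16a8.

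Same-numbered arrays showed no steady shared deviation (correlations of -0.34 to 0.38), and the arrays were not treated as paired in the main fit. With the replicate block Slc16a8 in males was 1.66 (limma adjusted p = 0.0423), and 79 probes were called in male aging against 149. Over all probes the calls ranged from 55 to 412 in male aging, 36 to 103 in female aging (main 95), 186 to 339 in the mean, 24 to 236 at 3 months (main 59) and 26 to 281 at 24 months (main 103). Uncalled changes, many of them near 0, changed sign in some settings, and no called value did. Larger ones were those of Slc16a3, which changed sign with its second tested probe. Its sex difference at 24 months went from -0.35 to 0.11, and its difference of the age changes from -0.27 to 0.03. Genes not detected, such as Slc16a1, cannot show a change below the detection level.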
